A study of Rattus norvegicus with 8 samples.

Results

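Osteopontin, the secreted phosphoprotein encoded by Spp1, and 4 chains of its cell surface receptors were followed in single-cell RNA sequencing data of the contused rat spinal cord. The 5 genes Spp1, Cd44, Itgav, Itga4 and Itgb1 were chosen by their symbols among the 32623 genes of the deposited tables, and all 5 were found, as ENSRNOG00000043451 (Spp1), ENSRNOG00000006094 (Cd44), ENSRNOG00000004912 (Itgav), ENSRNOG00000004861 (Itga4) and ENSRNOG00000010966 (Itgb1). Female Wistar rats, 8 weeks old per the labels, had a laminectomy at T9 and were killed 7 days later. In the mild, moderate and severe groups a weight of 10 g was dropped on the exposed cord from 12.5 mm, 25 mm and 50 mm, and the sham group had the laminectomy alone. Each of the 4 groups had 2 libraries, called replicates 1 and 2, and the study's text gives 8 spinal cords for the 8 libraries. The labels tie no library to an animal, so p-values measure the spread between libraries. All groups shared the laminectomy and pentobarbital anaesthesia. The cord tissue was digested with enzymes and loaded without a sort for a cell type named in the sources used here.

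Osteopontin is released into the extracellular space, where it acts as a cytokine and as a matrix protein, and it is well known from activated macrophages and from microglia around lesions of the nervous system. Its RGD sequence binds integrins that contain the αv chain (Itgav) or pair with the β1 chain (Itgb1), and a stretch uncovered by thrombin binds α4β1 (Itga4 with Itgb1) and α9β1. CD44, a receptor best known for binding hyaluronan, has also been described as an osteopontin receptor, mainly in its splice variants, which 3′ end counts cannot tell apart. The integrin chains also bind fibronectin, vitronectin and VCAM-1.

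Spp1 carried the differences between injury groups described below, so the bases before its start are shown as sequence context. The RefSeq promoter table places them at chr14:5619805-5620054 on the minus strand of build GRCr8, while the counts were made on Rnor_6.0. The 250 bases are written 5′ to 3′ and end at the base before the start. Capitals mark matches of the letters TGNGGT on either strand. These letters are looser than the core of Runx sites, TGYGGT, where Y is C or T.
Spp1 promoter: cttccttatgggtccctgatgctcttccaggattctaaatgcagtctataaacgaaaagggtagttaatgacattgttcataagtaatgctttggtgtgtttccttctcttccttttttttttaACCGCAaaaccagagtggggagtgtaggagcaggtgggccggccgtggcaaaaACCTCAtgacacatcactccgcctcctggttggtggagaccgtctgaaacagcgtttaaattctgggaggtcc
TGNGGT matched 2 times, beginning at bases -126 and -73 from the start, and 41.0% of 33469 rat promoters of the same length hold at least 1 match. On the other strand the match at -126 reads TGCGGT, which has the Runx core, and that at -73 reads TGAGGT, which does not. The share of promoters with TGYGGT was not counted. TGANTCA, the letters of AP-1 sites, matched 0 times and is held by 6.34% of promoters. CANNTG, the E-box, matched 1 time at -96 and is held by 65.5%. TTTAAA matched 1 time at -19 and is held by 12.3%. No motif searched overlaps another in these matches. A match describes the letters only.

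The tables held 68658 cells as deposited, and 55455 cells were kept after filters on mitochondrial UMIs, doublets and outlying cells. Unique molecular identifiers (UMIs) mark single RNA molecules, and after filtering each library totalled 23535282 to 99689125 of them, with a median of 2745 to 10836 per cell. Cell types were gated cell by cell with marker lists that hold none of the 5 members. Macrophages/microglia (C1qa, C1qb, C1qc, Trem2, Csf1r, Cd68, Adgre1, Lgmn and Aif1) made up 28266 cells, or 51.0% of the kept cells. The labelled spinal cord tissue was represented by 3443 oligodendrocytes and 1914 oligodendrocyte precursors, but astrocytes passed the gate in 56 cells and neurons in 16, so no level is given for them. Sham replicate 1 stood apart. It held 4254 of the 6179 gated neutrophils, and the 11 neutrophil markers summed to 3528 CPM (UMIs scaled to a total of 1e6) in its macrophages/microglia against 78.3 to 309 in the other 7 libraries. Any 2 libraries shared between 5 and 40 cell barcodes, at most 0.452% of the smaller library.

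Spp1 was by far highest in macrophages/microglia. Levels are given as CPM (counts per 1e6), where a gene's UMIs in all cells of 1 type and library are scaled by the total UMIs of those cells, for libraries with at least 20 such cells. Macrophages/microglia held 97.3% of all Spp1 UMIs of the kept cells and 64.5% of all UMIs. Their Spp1 level was 12944 ± 7307 CPM (SD, n = 8 libraries), against 351 ± 382 CPM in all other gated cells together. In sham replicates 1 and 2 the macrophage/microglial level was 4747 and 2857 CPM. Mild replicates 1 and 2 reached 12024 and 10029 CPM, moderate ones 15013 and 21193 CPM and severe ones 24018 and 13667 CPM. All 6 injured libraries lay above both sham libraries. Within libraries the difference to the other gated cells was 5.72 ± 1.09 on the log2(CPM + 1) scale (SD) and had the same direction in 8 of 8 libraries (exact permutation test by two-sided sign flips, p = 0.0078125, which 8 libraries cannot undercut, adjusted p = 0.0195 over the 5 members).

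The next levels of Spp1 were far lower. Neutrophils averaged 1222 ± 1763 CPM (n = 7 libraries), T cells/NK cells 621 ± 755 CPM (n = 7) and fibroblasts 500 ± 412 CPM (n = 7). In neutrophils it ran from 42.6 CPM in sham replicate 1 to 5020 CPM in moderate replicate 2. C1qb, a marker of macrophages/microglia, had 0.547 to 5.21%, 0.271 to 3.17% and 0.219 to 2.29% of its macrophage/microglial level in these 3 types. The part of macrophage/microglial RNA in their Spp1 was not tested. Dendritic cells averaged 495 ± 562 CPM (n = 7), oligodendrocyte precursors 348 ± 325 CPM (n = 8) and oligodendrocytes 225 ± 250 CPM (n = 8). B cells, erythroid cells and endothelial cells had 110 ± 85.1 CPM (n = 3), 47.5 ± 37.2 CPM (n = 3) and 34.0 ± 20.3 CPM (n = 4), from sham and severe libraries alone, so their place in the order of means is not like for like. In the 3 libraries with B cells, oligodendrocytes had 41.2 CPM against 110 CPM in B cells and were lower in all 3. Of the 9 neighbouring pairs in this order, 3 differed beyond their spread by the exact sign-flip test (adjusted p = 0.0469 each). They were macrophages/microglia above neutrophils, neutrophils above T cells/NK cells and oligodendrocyte precursors above oligodendrocytes. For pairs with 3 shared libraries the exact test cannot go below p = 0.25. Of the 8 analyses that each left out 1 library, 7, all but the one without sham replicate 2, had 0 of the 45 neighbouring pairs of the 5 members past the threshold, against 6 with all libraries. Leaving out a library that a pair uses raises the smallest p that the exact test can reach. Sham replicate 2 had too few cells to enter the pairs of 7 libraries. This loss therefore does not tell whether the order rests on single libraries.

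**Figure D1:**
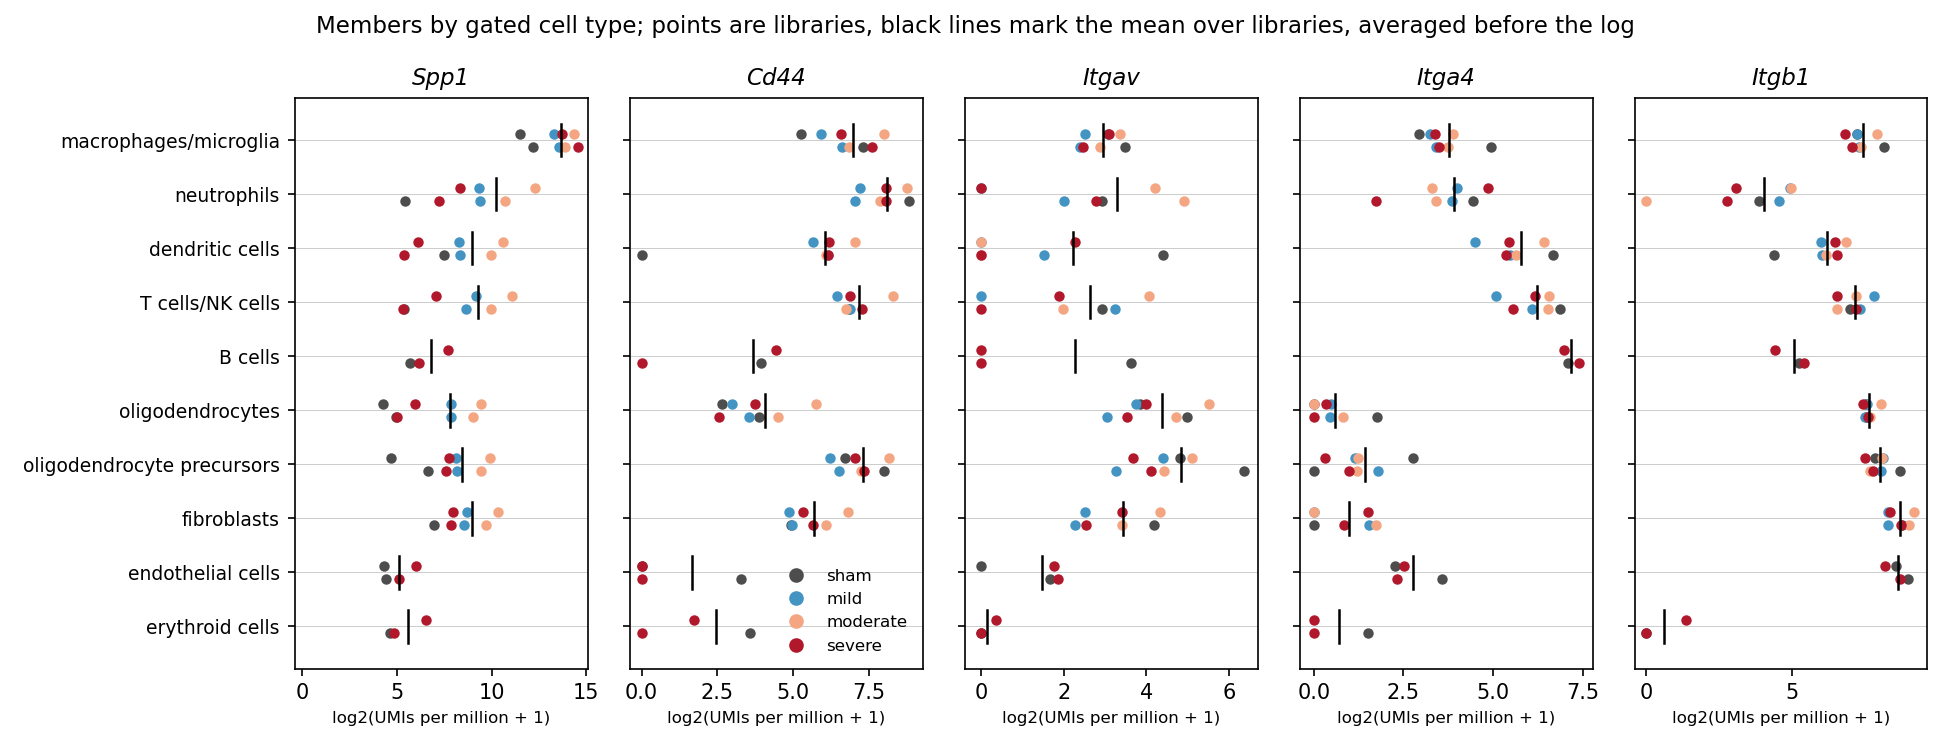
Level of each member in each gated cell type, as log2(CPM + 1) on the horizontal axis. Points are libraries coloured by injury group and black lines mark the mean over libraries. Spp1 lies farthest to the right in macrophages/microglia, whereas Cd44 is highest in neutrophils, Itgav in the oligodendrocyte lineage, Itga4 in lymphocytes and dendritic cells, and Itgb1 in fibroblasts and endothelial cells.

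Cd44, a cell adhesion receptor, was spread over immune and precursor cells. It was highest in neutrophils at 278 ± 127 CPM (n = 7), where it ranged from 131 CPM in mild replicate 1 to 457 CPM in sham replicate 1. Oligodendrocyte precursors had 157 ± 76.7 CPM (n = 8), T cells/NK cells 144 ± 77.0 CPM (n = 7) and macrophages/microglia 126 ± 72.0 CPM (n = 8). Dendritic cells had 66.2 ± 39.1 CPM, fibroblasts 51.0 ± 30.7 CPM and oligodendrocytes 16.0 ± 15.8 CPM. In this order neutrophils stood above oligodendrocyte precursors, macrophages/microglia above dendritic cells and fibroblasts above oligodendrocytes (exact sign-flip test, adjusted p = 0.0469 each), while precursors, T cells/NK cells and macrophages/microglia did not differ beyond their spread. Within libraries, macrophages/microglia exceeded the other gated cells by 0.51 ± 0.87 log2 units, in 6 of 8 libraries, which did not pass the exact test (p = 0.125).

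Itgav, the αv chain of the RGD-binding integrins, was sparse everywhere. Its highest levels were in oligodendrocyte precursors at 27.5 ± 23.3 CPM and oligodendrocytes at 19.9 ± 12.7 CPM (n = 8 each), followed by fibroblasts at 9.89 ± 6.20 CPM and neutrophils at 8.86 ± 10.7 CPM (n = 7 each). Macrophages/microglia had 6.79 ± 2.23 CPM, from 4.25 CPM in mild replicate 1 to 10.1 CPM in sham replicate 1. This was lower than in the other gated cells of the same library by 0.81 ± 0.60 log2 units in 7 of 8 libraries (exact sign-flip test, p = 0.015625, adjusted p = 0.0260). No neighbouring pair of cell types passed the adjusted threshold for Itgav.

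Itga4, the α4 chain that also makes the VCAM-1 receptor of lymphocytes, stood out in lymphoid cells, with 142 ± 22.9 CPM in B cells (n = 3), and was next in T cells/NK cells at 74.0 ± 28.6 CPM (n = 7) and dendritic cells at 54.3 ± 27.5 CPM (n = 7). T cells/NK cells exceeded dendritic cells, and dendritic cells exceeded neutrophils, in 7 of 7 libraries, each with an exact p of 0.015625 and an adjusted p of 0.0703. Macrophages/microglia had 12.5 ± 7.26 CPM and neutrophils 14.0 ± 8.36 CPM. Oligodendrocytes had 0.519 ± 0.802 CPM, with 37 Itga4 UMIs in all 8 libraries together. Macrophages/microglia exceeded the other gated cells in 8 of 8 libraries, by 0.84 ± 0.69 log2 units (exact sign-flip test, p = 0.0078125, adjusted p = 0.0195).

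Itgb1, the β1 chain shared by many matrix receptors, was highest in structural cells. Fibroblasts had 424 ± 106 CPM (n = 7), endothelial cells 407 ± 92.0 CPM (n = 4) and oligodendrocyte precursors 262 ± 72.7 CPM (n = 8), and pericytes/smooth muscle reached 1438 CPM in the 1 library with enough cells, sham replicate 1. Oligodendrocytes had 177 to 268 CPM and macrophages/microglia 177 ± 59.6 CPM, while neutrophils had 15.8 ± 12.2 CPM and erythroid cells 0.532 ± 0.922 CPM. Macrophages/microglia lay below the other gated cells in 7 of 8 libraries, by 0.48 ± 0.62 log2 units, which did not pass the exact test (p = 0.0703). Without sham replicate 1, which held most of the neutrophils, the difference was -0.67 in 7 libraries and passed (exact p = 0.015625).

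Shares of cells with a UMI were computed at 1 depth. Each cell with at least 1000 UMIs was thinned to 1000, and erythroid cells, which should lack Spp1, served as its background. For the receptor chains the erythroid shares are given as a comparison alone, since erythroid cells cannot be taken to lack them. Spp1 was found in 69.5 ± 17.3% of macrophages/microglia (mean over 8 libraries) against 8.32 ± 4.93% of erythroid cells (3 libraries), and without thinning in 88.0% of macrophages/microglia, at median depths of 10641 and 7396 UMIs per cell. Cd44 was found in 12.1 ± 6.76% of macrophages/microglia and 25.3 ± 8.76% of neutrophils against 0.596% of erythroid cells. Itgb1 was found in 15.6 ± 4.31% of macrophages/microglia and 33.2 ± 4.27% of fibroblasts against 0.160% of erythroid cells. Itga4 and Itgav were found in 1.37 ± 0.64% and 0.786 ± 0.359% of macrophages/microglia, and in 0 of 985 thinned erythroid cells, which allows a share of up to 0.305% by counting error alone. The thinned Spp1 share of 0.690 to 6.56% in the endothelial cells of 4 libraries lay within or below the 2.63 to 11.4% of erythroid cells. The erythroid cells came from sham replicate 1 and both severe replicates, so no background or erythroid share is given for the mild and moderate libraries.

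Marker lists then picked subsets out of the macrophages/microglia. They were homeostatic microglia (Tmem119, P2ry12, Cx3cr1 and others), infiltrating macrophages (Lyz2, Vcan, Fabp4, Arg1 and others) and border macrophages (Mrc1, Cd163, Lyve1 and others). Of 28266 macrophages/microglia, 2947, 14085 and 919 entered these subsets in this order, and the other cells entered none. In sham replicate 1 the subsets held 116, 93 and 58 of 681 cells. Fabp4 and Arg1 also mark activated resident cells, so the name infiltrating macrophages stands for the list, not for a traced origin. Infiltrating macrophages made up 13.7% and 3.77% of the macrophages/microglia of sham replicates 1 and 2, and 43.7 to 67.1% in the injured libraries. Homeostatic microglia made up 17.0% and 63.6% in the sham replicates and 0.760 to 9.96% in the injured libraries. These shares come from gated cells and were not tested, and the mixture behind the level of all macrophages/microglia differed between sham and injured libraries. With 1 detected marker fewer of their own list per cell, 27.0% of the infiltrating macrophages would leave their gate. The same holds for 44.0% of the homeostatic microglia and 58.1% of the border macrophages.

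Spp1 and Cd44 were higher in infiltrating macrophages than in homeostatic microglia of the same library. Spp1 had 18235 ± 9588 CPM in infiltrating macrophages and 4478 ± 3839 CPM in homeostatic microglia, a difference of 2.10 ± 1.22 log2 units in the same direction in 7 of 8 libraries (exact sign-flip test, p = 0.015625, adjusted p = 0.0195). Sham replicate 1 was the exception, with 3733 CPM against 3757 CPM. Fabp4, a marker of the infiltrating list, was the gene most like Spp1 over cell types (Pearson's r = 0.968). The lists were chosen with earlier results of these data known, so the gate is not independent of Spp1. Its part in the Spp1 difference was not tested. Cd44 had 208 ± 134 CPM and 45.3 ± 30.7 CPM, a difference of 2.16 ± 0.45 log2 units in 8 of 8 libraries. Itga4 was higher by 0.76 ± 0.73 and Itgav lower by 0.33 ± 0.14 log2 units, both in 8 of 8 libraries, and all 3 had an exact p of 0.0078125 (adjusted p = 0.0130). The Itga4 difference reached 2.32 log2 units in sham replicate 1, where infiltrating macrophages had 77.1 CPM and neutrophil markers summed to 3859 CPM in them, against 9.75 to 12.9 CPM of Itga4 in the other 7 libraries. Itgb1 had 177 and 183 CPM and did not differ beyond its spread (exact p = 0.227). Without a margin between the subset scores, a setting chosen after seeing the data, the Itgav difference was lost (-0.11, exact p = 0.242).

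Border macrophages, a name that stands for the list and not for a traced place, had less Spp1 than either other subset. Over the libraries the border markers summed to 2854 to 6962 CPM in them and 443 to 768 CPM in infiltrating macrophages. The infiltrating markers summed to 4728 to 17064 CPM and 7881 to 17680 CPM in the same order, so these ranges overlapped. The Spp1 level of border macrophages was 130 and 429 CPM for sham, 1410 and 982 CPM for mild, 2828 and 3312 CPM for moderate and 824 and 1273 CPM for severe injury. These values lay below those of infiltrating macrophages and of homeostatic microglia in all 8 libraries. Their Cd44 averaged 79.9 ± 35.7 CPM, their Itga4 12.5 ± 6.43 CPM and their Itgb1 182 ± 53.0 CPM.

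Spp1 was higher in macrophages/microglia of all 3 injured groups than in sham, and no receptor chain passed the test. In edgeR's quasi-likelihood test on summed UMIs, the log2 fold change of Spp1 against sham was 1.66 ± 0.38 (SE, adjusted p = 0.0433) in the mild, 2.30 ± 0.38 (adjusted p = 0.0353) in the moderate and 2.83 ± 0.39 (adjusted p = 0.00832) in the severe group. Thus 1 of 5 members was called in each comparison, where 6.18%, 2.29% and 8.31% of the 13534 genes tested were called in either direction. All 3 comparisons share the sham libraries. The fits also scale the library totals by TMM normalization factors. These were 1.26 and 1.02 in sham, 1.03 and 1.02 in mild, 1.07 and 1.10 in moderate and 0.843 and 0.750 in severe libraries. Without such factors the mean levels of moderate and severe lay close together, at 18103 and 18842 CPM. Over all alternatives run, the severe fold change lay between 2.31 and 3.16. Severe against mild, Spp1 differed by 1.17 ± 0.37 without passing (adjusted p = 0.144), and 0 of 5 members and 2.25% of all genes were called.

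The size of the Spp1 change was steadier than its call. Leaving out 1 library at a time gave 1.51 to 1.90 for mild, 2.05 to 2.53 for moderate and 2.46 to 3.16 for severe. The severe call held each time, the moderate call was lost without any 1 of the 6 injured libraries (adjusted p = 0.0586 to 0.216), and the mild call was lost without any library but sham replicate 1 (adjusted p = 0.0545 to 0.288). With only the 2 groups compared in the fit, none of the 3 passed (adjusted p = 0.116, 0.18 and 0.0704).

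**Figure D2:**
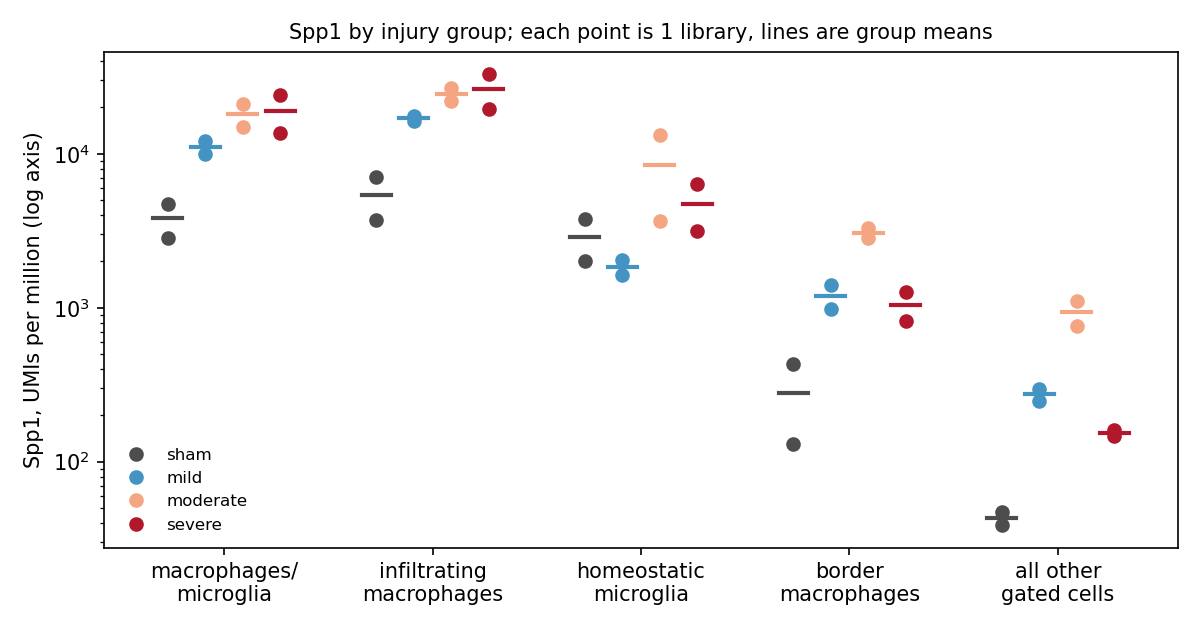
Spp1 level in CPM on a log axis in macrophages/microglia, their 3 subsets and all other gated cells. Each point is 1 library and lines are means of the 2 libraries of a group. In macrophages/microglia and infiltrating macrophages every injured library lies above both sham libraries, and in all other gated cells the moderate libraries are highest.

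The receptor chains did not separate sham from injured libraries. Cd44 in macrophages/microglia was 157 and 37.7 CPM for sham, 97.1 and 59.1 CPM for mild, 114 and 255 CPM for moderate and 194 and 95.9 CPM for severe injury. The sham replicates enclosed or overlapped every injured group, and the log2 fold changes were -0.13 ± 0.62, 1.03 ± 0.62 and 1.15 ± 0.62 (adjusted p = 0.905, 0.350 and 0.252). Without sham replicate 1, whose macrophages/microglia carried the neutrophil markers, Cd44 changed by 1.00, 2.15 and 2.27, and the severe difference passed (adjusted p = 0.0413). The part of neutrophil RNA in the Cd44 level of sham replicate 1 was not tested.

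Itgav in macrophages/microglia was 10.1 and 7.35 CPM for sham, 4.25 and 4.76 CPM for mild, 6.35 and 9.36 CPM for moderate and 4.49 and 7.61 CPM for severe injury. Both mild libraries lay below both sham libraries, with a log2 fold change of -0.84 ± 0.36 that did not pass after adjustment (adjusted p = 0.164). Itga4 was 29.6 CPM in sham replicate 1 and 6.57 to 13.7 CPM in the other 7 libraries, and its log2 fold changes of -0.78, -0.32 and -0.26 turned to 0.42, 0.86 and 0.93 without sham replicate 1. Itgb1 was 291 and 152 CPM in the sham replicates and 113 to 243 CPM in the injured libraries, with log2 fold changes of -0.37, -0.06 and -0.30. Without sham replicate 1 these were -0.01, 0.29 and 0.05. No direction is given for Itga4 or Itgb1 for that reason.

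**Figure D3:**
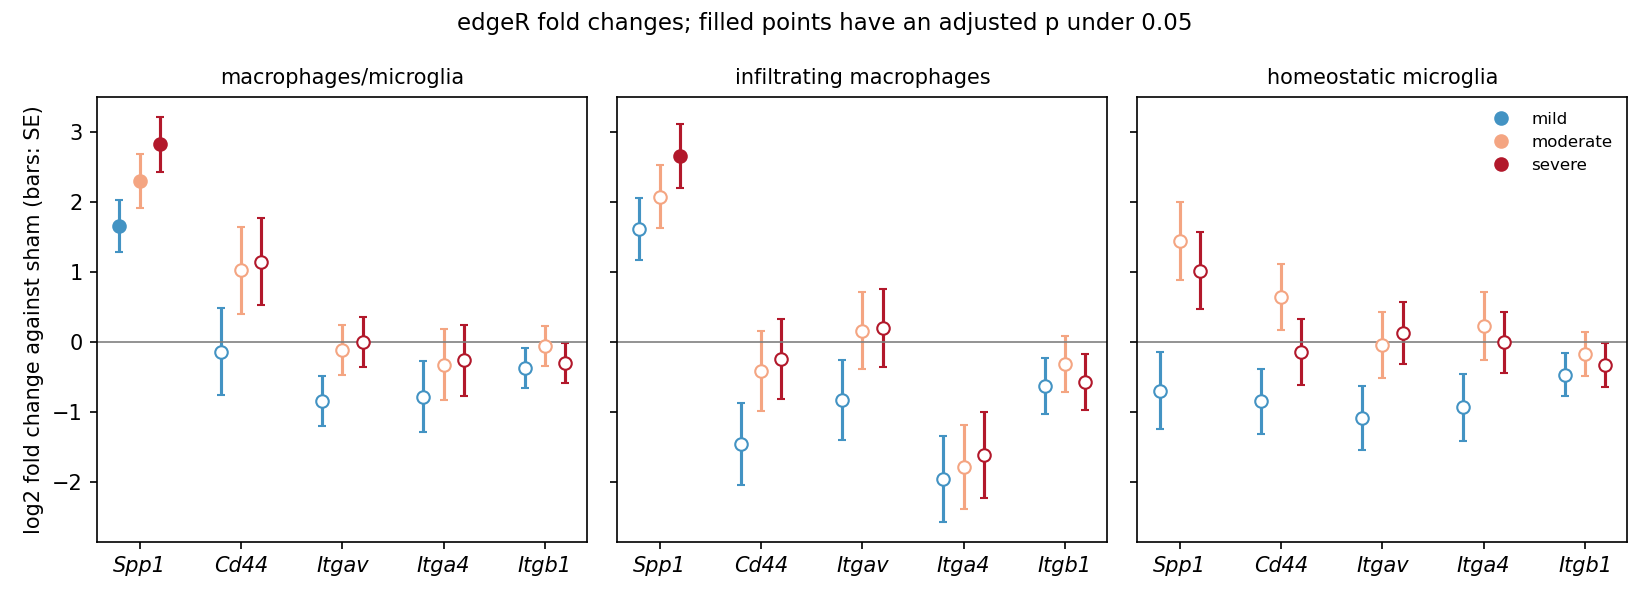
Log2 fold change of each member against sham in macrophages/microglia and 2 of their subsets from edgeR, with standard errors as bars. Filled points have an adjusted p under 0.05. Spp1 is the only member with filled points, at 1.66, 2.30 and 2.83 in macrophages/microglia and at 2.66 in infiltrating macrophages of the severe group.

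Within infiltrating macrophages every injured library had more Spp1 than both sham libraries. Its level was 3733 and 7090 CPM in the sham replicates, from 93 and 79 cells. Mild libraries had 17505 and 16438 CPM, moderate libraries 21944 and 26800 CPM and severe libraries 32958 and 19416 CPM. The log2 fold changes were 1.62 ± 0.44, 2.08 ± 0.45 and 2.66 ± 0.46, of which the severe one passed (adjusted p = 0.134, 0.257 and 0.0421), where 0%, 0% and 0.868% of 12552 genes were called. In the mild and moderate comparisons edgeR called 0 genes of any kind, with 2291 and 1462 at an unadjusted p under 0.05. Severe against mild, 0 of 5 members were called (Spp1 1.04 ± 0.43, adjusted p = 0.200), with 4.45% of all genes called. The severe call against sham was lost without any 1 library other than sham replicate 2 (adjusted p = 0.0585 to 0.141). Itga4 in this subset had log2 fold changes of -1.95, -1.78 and -1.61 with adjusted p-values of 0.162, 0.334 and 0.220, and the sham mean rested on the 77.1 CPM of sham replicate 1.

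In homeostatic microglia the Spp1 levels of sham and injured libraries overlapped. They were 3757 and 2021 CPM for sham, 2052 and 1622 CPM for mild, 3675 and 13239 CPM for moderate and 3142 and 6320 CPM for severe injury. The value of 13239 CPM in moderate replicate 2 came from 29 cells, and without that library the moderate log2 fold change was 0.32 in place of 1.44. The log2 fold changes of -0.69 ± 0.55, 1.44 ± 0.55 and 1.02 ± 0.55 did not pass (adjusted p = 0.520, 0.317 and 0.405), and 0 of 5 members was called, with 0.297%, 0.159% and 1.55% of 9422 genes called. Severe against mild, 0 of 5 members and 2.12% of genes were called. In border macrophages the log2 fold changes of Spp1 were 1.98 ± 0.51, 3.32 ± 0.53 and 2.15 ± 0.51, with every injured library above both sham libraries, but the adjusted p-values were 0.0928, 0.0634 and 0.0980. Without sham replicate 2 all 3 passed, at 3.18, 4.50 and 3.35, and without sham replicate 1 they were 1.37, 2.69 and 1.55, of which the moderate one passed. Without a margin between types, an alternative chosen after seeing the data, the mild value turned to -0.088. Of all genes, 1.06%, 0.0661% and 0.727% of 7570 were called.

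The injury effect on Spp1 was larger in infiltrating macrophages than in homeostatic microglia by 2.37 ± 0.56 log2 units in the mild, 0.97 ± 0.56 in the moderate and 1.68 ± 0.56 in the severe group. In the edgeR test of this interaction, with library as a block, none of these passed (adjusted p = 0.321, 0.875 and 0.323), and of the 5 members in 3 comparisons 0 were called, with 0.0178%, 0.0444% and 0.275% of 11261 genes called. Of these 15 differences 5 had an unadjusted p under 0.05, namely Spp1 in mild and severe, Cd44 in moderate, and Itga4 in moderate and severe. Of all 11261 genes, 681, 634 and 931 had such a p in the mild, moderate and severe comparison. Leaving out 1 library moved the difference of Spp1 between 1.61 and 3.10 in mild, 0.21 and 1.76 in moderate and 0.80 and 2.56 in severe. Without severe replicate 1 the mild difference passed (2.27, adjusted p = 0.0162). It also passed without either sham or either mild replicate, as did the severe difference, and the moderate one passed without sham replicate 2. In these 4 analyses edgeR gave nearly every gene the same spread (median prior degrees of freedom of 663 or infinite, against 12.5 with all libraries, and 3 residual degrees of freedom against 4), with adjusted p-values down to 3.8e-20, so no call is read from them.

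The relation of Spp1 to the grade of injury was tested over all 8 libraries. The grades are group codes in equal steps, not forces or drop heights, and Pearson's r depends on these steps. With injury grades of 0 to 3, Spearman's rho of Spp1 in macrophages/microglia was 0.878 (exact permutation test, p = 0.0103, adjusted p = 0.0774 over 15 relations) and Pearson's r was 0.864 (exact p = 0.00556, adjusted p = 0.0476). The sham libraries formed a separate low cluster. Among the 6 injured libraries rho was 0.717 (exact p = 0.178) and r was 0.670 (exact p = 0.156), so an order among the injured groups was not shown. Leaving out both severe libraries gave a rho of 0.956 (exact p = 0.0222) over 6 libraries.

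Single macrophages/microglia differed widely in Spp1 within each library. After thinning to 1000 UMIs, the median cell had 1 and 0 Spp1 UMIs for sham, 3 and 1 for mild, 4 and 11 for moderate and 5 and 5 for severe injury. The ninetieth percentile was 12 and 6 in the sham replicates and lay between 25.4 and 70.2 in the injured libraries. The tenth of cells with most Spp1 held 61.5% and 68.3% of the Spp1 UMIs in the sham replicates and 35.5 to 50.9% in the injured libraries. In infiltrating macrophages the median was 0 and 4 in the sham replicates and 8 to 17 in the injured libraries.

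**Figure D4:**
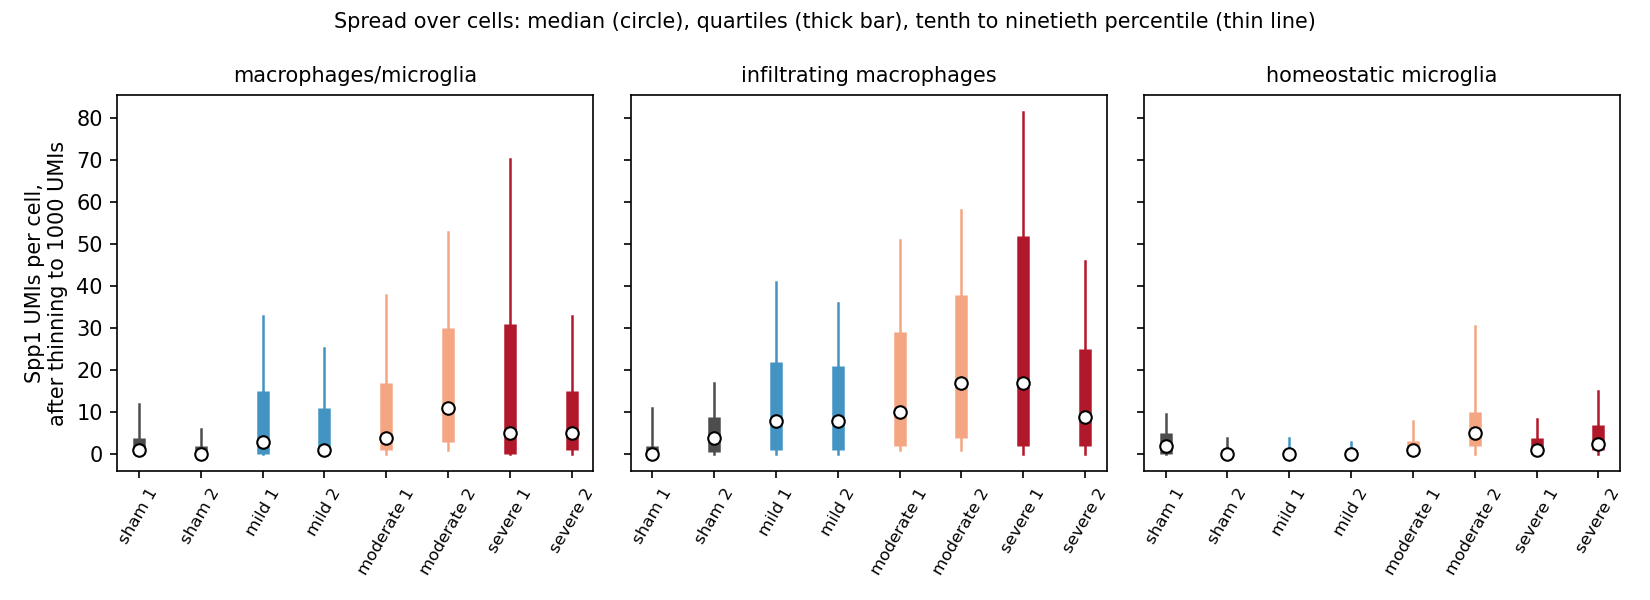
Spread of Spp1 over single cells of each library, in UMIs per cell after thinning each cell to 1000 UMIs, for macrophages/microglia and 2 subsets. Circles are medians, thick bars quartiles and thin lines the tenth to ninetieth percentile. In infiltrating macrophages the medians lie at 8 to 17 UMIs in injured libraries, while in homeostatic microglia 7 of 8 medians lie at 0 to 2.5.

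Cells ranked by their own Spp1 differed in other genes, described here without a test because the cells were ordered by a measured value. Macrophages/microglia of each library were divided into 4 equal bins by the share of Spp1 in each cell's UMIs. Cd44 was 153 ± 84.8 CPM in the highest and 126 ± 96.5 CPM in the lowest bin, higher in 6 of 8 libraries. Itga4 was lower in the highest than in the lowest bin in 8 of 8 libraries, by a mean log2 difference of -0.72. Itgb1 was 171 and 191 CPM and Itgav 6.42 and 8.11 CPM. Fabp4, a fatty acid binding protein of lipid-laden macrophages, was 1272 ± 825 CPM against 169 ± 227 CPM, and Gpnmb, a glycoprotein of phagocytes, was 4320 ± 2291 CPM against 1290 ± 728 CPM, both higher in 8 of 8 libraries. P2ry12, the purinergic receptor of resting microglia, was 18.0 and 66.1 CPM.

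In the oligodendrocyte lineage Spp1 was low, and it was called higher after injury. In oligodendrocytes, the myelin-forming cells, its level was 29.5 and 18.6 CPM for sham, 230 and 228 CPM for mild, 512 and 686 CPM for moderate and 31.8 and 62.2 CPM for severe injury. The sham levels rested on 332 and 7 Spp1 UMIs from 1205 and 33 cells in replicates 1 and 2. The log2 fold changes of 3.15 ± 0.34 and 4.37 ± 0.35 in the mild and moderate group passed (adjusted p = 0.00269 and 0.00045), the severe one of 1.13 ± 0.34 did not (adjusted p = 0.106), and severe lay below mild by 2.02 ± 0.31 (adjusted p = 0.00588). Of the 4 members tested 1, 1, 0 and 1 were called, where 7.3%, 3.12%, 1.4% and 3.27% of 9460 genes were called. In oligodendrocyte precursors, the dividing progenitors, Spp1 was 99.3 and 25.3 CPM for sham, 293 and 275 CPM for mild, 705 and 977 CPM for moderate and 191 and 215 CPM for severe injury. Here the sham levels rested on 34 and 13 Spp1 UMIs from 50 and 59 cells. All 3 fold changes passed, at 2.27 ± 0.42, 3.83 ± 0.43 and 2.10 ± 0.42 (adjusted p = 0.0219, 0.00210 and 0.00994), where 2.73%, 5.23% and 10.5% of 10692 genes were called. Severe against mild, 0 of 4 members and 6.24% of genes were called.

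Markers of macrophages/microglia were above sham together with Spp1 in these cells in the mild and moderate but not in the severe group. Of their 9 gate markers found in the files, 8 were tested. In oligodendrocytes 8 of 8 were above sham in mild, 7 of 8 in moderate and 3 of 8 in severe, with median log2 fold changes of 1.19, 0.75 and -0.42, and Trem2 and Cd68 passed in mild and moderate. In oligodendrocyte precursors 8, 7 and 2 of 8 were above sham, with medians of 1.10, 1.21 and -0.54. Within each library Spp1 was set against C1qb, a complement gene of macrophages/microglia and a gate marker. In macrophages/microglia there were 0.741 and 0.440 Spp1 UMIs per C1qb UMI for sham, 3.54 and 1.79 for mild, 4.70 and 6.62 for moderate and 11.2 and 3.86 for severe injury. In oligodendrocytes the ratio was 0.818 and 0.333, 4.01 and 2.01, 7.59 and 16.7, and 11 and 2.69 in the same order. The oligodendrocyte ratio lay above the macrophage ratio in the mild and moderate libraries and below it in severe replicate 2. In these libraries its exact 95% interval did not hold the macrophage ratio, and the widest gap was in moderate replicate 2. Macrophage subsets lay on both sides of this ratio. Homeostatic microglia had 13.1 to 79.1% of the macrophage Spp1 level and 106 to 462% of the macrophage C1qb level. Their ratio in mild replicate 1 was 0.249. Infiltrating macrophages had 78.6 to 248% of the Spp1 level and 17.0 to 52.8% of the C1qb level, so their ratio lay above that of all macrophages/microglia. In oligodendrocyte precursors the ratio was 1.89 and 0.591, 4.99 and 2.53, 8.74 and 18.9, and 99.5 and 11.1, above the macrophage ratio in 8 of 8 libraries. The ratio of 99.5 rested on 2 C1qb UMIs (exact 95% interval 27.2 to 827, counting error only), and that of 11 in oligodendrocytes of severe replicate 1 on 3 (3.45 to 56.1). The interval of the precursors of sham replicate 2, 0.273 to 1.23, held the macrophage ratio. A ratio above that of macrophages/microglia was not limited to this lineage. In fibroblasts it ran from 3.61 in sham replicate 1 to 49.7 in severe replicate 1 and lay above in all 7 libraries. In moderate replicate 2 it was 30.1 in neutrophils, 29.3 in dendritic cells and 21.1 in T cells/NK cells. Of these types, neutrophils lay below in sham replicate 1 (0.698) and dendritic cells in severe replicate 2 (2.47). T cells/NK cells lay below in both severe replicates. Oligodendrocytes had 0.132 to 3.41% of the macrophage Spp1 level and 0.135 to 2.11% of the macrophage C1qb level. How much of this Spp1 came from macrophages/microglia was not tested. Leaving out 1 library moved the fold changes in precursors between 1.63 and 3.48 in mild, 3.16 and 5.01 in moderate and 1.47 and 3.31 in severe, with the highest values without sham replicate 1 and the lowest without sham replicate 2. The call in precursors was lost without either mild replicate in mild (adjusted p = 0.122 and 0.0602) and without severe replicate 2 in severe (adjusted p = 0.0824), and the severe difference in oligodendrocytes passed without severe replicate 1 (1.52, adjusted p = 0.0383).

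**Figure D5:**
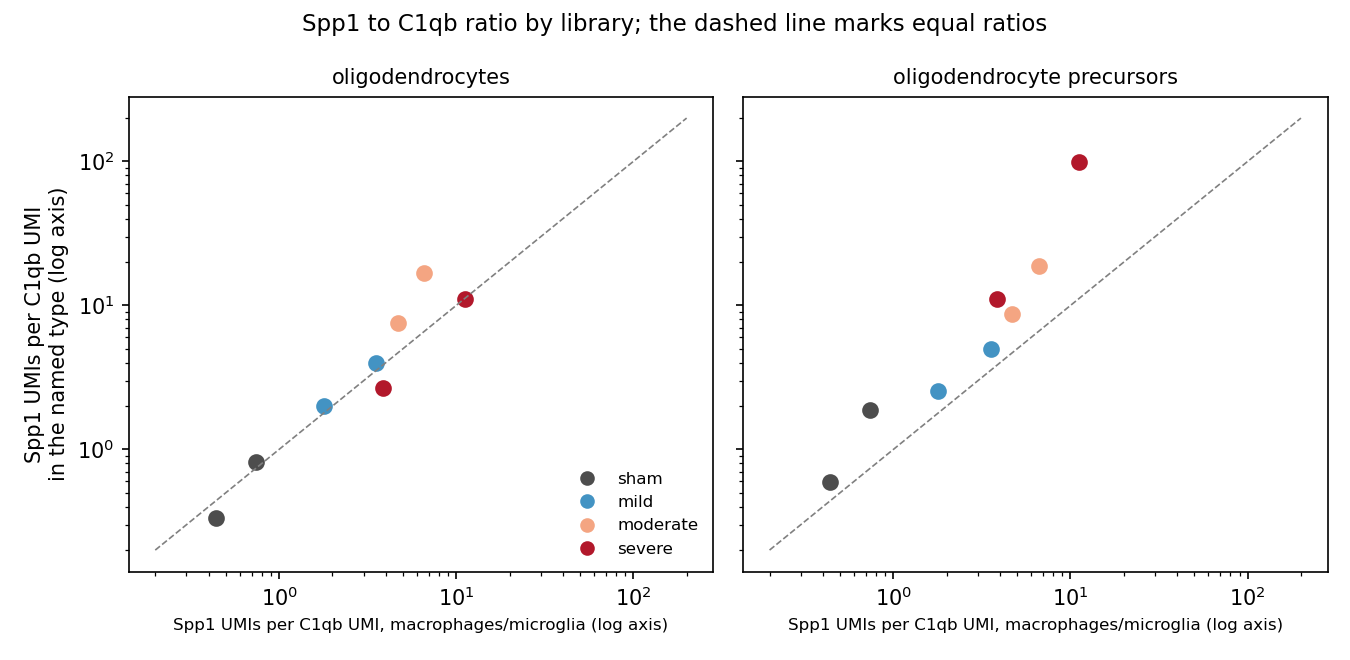
Spp1 UMIs per C1qb UMI in oligodendrocytes (left) and oligodendrocyte precursors (right) against the same ratio in macrophages/microglia of the same library, both on log axes. Points are libraries and the dashed line marks equal ratios. Oligodendrocytes lie farthest from the line in moderate replicate 2, and all 8 points of the precursors lie above it.

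No receptor chain was called in the oligodendrocyte lineage. Itgav in oligodendrocytes was 30.6 and 13.3 CPM in the sham replicates and 7.26 and 12.4 CPM in the mild replicates, with a log2 fold change of -1.36 ± 0.38 just short of the threshold (adjusted p = 0.0512). In oligodendrocyte precursors Itgav had log2 fold changes of -1.80 ± 0.50, -0.93 ± 0.47 and -1.63 ± 0.52 (adjusted p = 0.0629, 0.258 and 0.0595). Its sham level rested on 81.8 CPM in sham replicate 1 and 27.2 CPM in sham replicate 2, and all 6 injured libraries had 8.56 to 33.3 CPM. Cd44 in precursors was 254 and 105 CPM in the sham and 74.5 to 287 CPM in the injured libraries. Itga4 did not pass the filter on low counts in either type.

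No partner chain of the members was called in macrophages/microglia. Of 8 other integrin subunits that bind osteopontin (Itga5, Itga8, Itga9, Itgb3, Itgb5, Itgb6, Itgb7 and Itgb8), 7 were tested and 0 were called against sham in any group, with median log2 fold changes of 0.22, 0.26 and -0.28 in the mild, moderate and severe group beside -0.00, 0.02 and -0.08 over all genes. These medians cover opposed values, with 4, 5 and 3 of the 7 chains above 0. Itgb3 had log2 fold changes of -2.91, -2.25 and -2.03 (edgeR adjusted p = 0.0594, 0.131 and 0.128). Itga9 had -1.74, -0.87 and -1.79, and Itga8 had 6.69, 6.36 and 4.62 with standard errors of 2.17, 2.23 and 2.72. Of 12 adaptors and kinases that act inside the cell at integrins and CD44, all 12 were tested. In mild 1, in moderate 1 and in severe 0 passed, beside 6.18%, 2.29% and 8.31% of all genes called. Pxn (paxillin, an adaptor at integrin contacts) passed in mild and moderate, at 0.92 ± 0.21 and 1.13 ± 0.21 (adjusted p = 0.0450 and 0.0432), and the list's medians were -0.03, 0.16 and -0.02.

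Among 14 other ligands of these receptors 9 were tested in macrophages/microglia. In mild 1, in moderate 2 and in severe 1 of the 9 passed, beside 6.18%, 2.29% and 8.31% of all genes called. Postn (periostin, a matrix protein) passed in all 3 injured groups (adjusted p = 0.0239, 0.0179 and 0.0481), but it had 0 UMIs in both sham libraries and at most 2.95 CPM in any library. Against a floor of 3 counts over the sham group it was at least 6.36-fold, 25.9-fold and 1.56-fold higher in the mild, moderate and severe group. Tnc (tenascin-C, a matrix glycoprotein) passed in moderate, at 11.9 and 29.8 CPM against 0.199 and 0.551 CPM in sham (adjusted p = 0.0432). The summed fibroblast markers in macrophages/microglia lay between 3.22 and 179 CPM over the libraries and were highest in sham replicate 1, and the part of other cells in the Postn and Tnc counts was not tested. The list's median log2 fold changes were 0.41, 0.64 and 0.39 and stayed so with Postn at its bound, which lies above them.

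Of 9 proteases that cut osteopontin or activate such proteases, 6 were tested in macrophages/microglia. In mild 1, in moderate 1 and in severe 3 of the 6 passed, beside the 6.18%, 2.29% and 8.31% of all genes called, and their median log2 fold changes were 1.22, 2.09 and 1.42. Mmp9 and Mmp2, the gelatinases, had negative values in all 3 groups, -1.88 and -2.09 in severe (adjusted p = 0.452 and 0.0839). Mmp7 (matrilysin) was 0.596 and 1.29 CPM in the sham replicates, 13.7 and 26.3 CPM in the mild and 5.98 and 10.9 CPM in the severe replicates, with log2 fold changes of 4.26 ± 0.83 and 3.44 ± 0.82 (adjusted p = 0.0320 and 0.0433). Plau (urokinase, which activates plasminogen) was 5.96 and 10.5 CPM in the sham, 49.2 and 66.3 CPM in the moderate and 21.3 and 33.6 CPM in the severe replicates, with log2 fold changes of 2.74 ± 0.51 and 2.15 ± 0.50 (adjusted p = 0.0432 and 0.0396). Mmp12 (macrophage elastase) passed in severe, at 1.53 ± 0.37 (adjusted p = 0.0435). Plau also passed in homeostatic microglia of the severe group, at 2.47 ± 0.48 (adjusted p = 0.0298). There 1 of 2 proteases tested was called, beside 1.55% of all genes. In infiltrating macrophages 0 of the tested genes of the 4 lists were called against sham, beside 0%, 0% and 0.868% of all genes in mild, moderate and severe. So few calls of any kind do not tell the lists from other genes. The protease medians there were -0.56, -0.36 and -1.33, and Mmp12 had log2 fold changes of -1.60, -1.47 and -1.69 (adjusted p = 0.156, 0.318 and 0.133), opposite in sign to those of all macrophages/microglia. In border macrophages Ptk2 (focal adhesion kinase) fell in mild by 3.77 on the log2 scale (adjusted p = 0.0488) from 15 UMIs in the sham to 3 in the mild libraries. It was the 1 called of 10 adaptors and kinases tested, beside 1.06% of all genes.

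In the oligodendrocyte lineage some genes of the lists were called. In mild oligodendrocytes 1 of 2 integrin subunits and 1 of 11 adaptors and kinases tested were called, beside 7.3% of all genes. In moderate precursors 2 of 7 ligands and 1 of 11 adaptors and kinases were called, beside 5.23%. In severe precursors 1 of 5 subunits, 1 of 7 ligands and 2 of 11 adaptors and kinases were called, beside 10.5%. Itgb8 (the β8 partner of αv) fell in oligodendrocytes of the mild group by 2.07 ± 0.34 on the log2 scale (adjusted p = 0.00906), and Vcl (vinculin, a cytoskeletal linker) fell by 2.45 ± 0.42 (adjusted p = 0.0101). Tnc rose in oligodendrocyte precursors of the moderate and severe group by 2.95 ± 0.50 and 2.54 ± 0.50 (adjusted p = 0.00824 and 0.00903), from 17.5 and 66.1 CPM in sham to 201 and 512 CPM in moderate and 242 and 190 CPM in severe. Fn1 (fibronectin) and Pxn rose there in moderate by 3.78 ± 0.76 and 1.91 ± 0.37, and Ilk (integrin-linked kinase) and Msn (moesin) in severe by 1.36 ± 0.30 and 1.27 ± 0.34 (adjusted p = 0.0153, 0.0125, 0.0144 and 0.0312). In the sham precursors Fn1 rested on 2 UMIs and Pxn on 16. Itga9 (the α9 chain) fell there in severe by 3.38 ± 0.95 (adjusted p = 0.0377), with 11 UMIs in the sham and 5 in the severe libraries. Tnc in oligodendrocytes of the moderate group (4.98 ± 0.88, adjusted p = 0.0199) rested on 29.5 CPM in moderate replicate 2. It was the 1 called of 4 ligands tested, beside 3.12% of all genes. Vcl lay above mild in severe oligodendrocytes and precursors by 2.53 and 1.58 (adjusted p = 0.00857 and 0.0361). In each type it was the 1 called of 11 adaptors and kinases tested, beside 3.27% and 6.24% of all genes.

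The genes most like each member over cell types were found by Pearson's r of the mean log2(CPM + 1) over 10 cell types among 10942 genes, as a description without a test. Spp1 was most like Fabp4 (0.968), Folr2 (0.962) and Cideb (0.960), of which Fabp4 and Folr2 are markers used in the subset gates. Cd44 was most like AABR07049821.1 (0.902), Metrnl (0.898) and Id2 (0.875). Itgav was most like Etv1 (0.951), Tango2 (0.941) and Ermard (0.933), Itga4 like LOC100911104 (0.972), Atp2a3 (0.971) and Arhgap15 (0.969), and Itgb1 like Akip1 (0.988), Fam3a (0.983) and Cfap298 (0.982). Over the 8 library sums of macrophages/microglia, Spp1 was most like Rell1 (0.988), Myof (0.982), Mdfic (0.970), Ptger2 (0.970) and Pla2g7 (0.966) among 6366 genes, which share the same libraries and the same change in subsets.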

How the data were processed

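The authors deposited raw UMI counts per gene and cell for 8 libraries (10x 3′ kit, version 3), made on Rnor_6.0 with Cell Ranger, version 5.0.1 per the file headers. From these deposited counts, cells over 10% mitochondrial UMIs, the 7.7% of each library with the highest doublet scores, and cells over 2 SD from their library's mean of UMIs or genes were left out. A cell type needed 3 detected markers and 1.5 times the score of the next type. The members and lists were chosen with earlier results of these data known. Named were the 5 members, genes of the 4 lists past the threshold (at most 4 per list and comparison), some list genes that did not pass, and the genes most like a member. UMIs were summed per library and type (at least 20 cells). Groups were compared with edgeR 4.0.16 (quasi-likelihood, TMM, all 4 groups in 1 fit, Benjamini-Hochberg adjusted, 0.05) in R 4.3.3, and cell types within libraries by two-sided exact sign-flip permutation tests with scipy 1.17.1 on log2(CPM + 1). Alternatives used DESeq2 1.42.0, Seurat 5.3.0 clusters (4000 variable genes, 15 components, resolution 0.4) and other filters. On simulated data for severe against sham with 13117 genes, 25 of 100 genes changed by 1 and 93 of 100 changed by 2 log2 units were called. Every simulated gene was given the same spread between libraries. These shares therefore do not tell how often such a change in a member would be called. Intervals and floors cover counting error only. Same-numbered libraries did not deviate together (6 correlations of -0.364 to 0.293 over 6677 genes). Promoter letters came from the RefSeq table.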

Additional observations from a re-analysis of the deposited data

Results flagged for a closer look

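Severe against mild, Spp1 was higher in macrophages/microglia and lower in 6 other cell types, with no overlap of the libraries of both groups. The log2 ratio of the group means was 0.77 in macrophages/microglia. It was -2.29 in oligodendrocytes, -0.48 in oligodendrocyte precursors and -1.50 in neutrophils. It was -2.55 in dendritic cells, -2.51 in T cells/NK cells and -0.71 in fibroblasts. The median log2 fold change of 8 macrophage markers, severe against mild, was -1.61 in oligodendrocytes (1 of 8 above 0, 1 called lower) and -1.89 in precursors (0 of 8 above 0, 4 called lower). In T cells/NK cells C1qb had 92.2 and 131 CPM in the mild and 5.80 and 44.7 CPM in the severe libraries. The part of these markers in the Spp1 values was not tested. For Itgb1 the ratio was -0.33 in macrophages/microglia, 0.51 in dendritic cells and 0.27 in fibroblasts, again with no overlap of the libraries. These differences between cell types were not tested. They were picked because the libraries did not overlap. Groups of 2 libraries can fail to overlap by chance, and the share of all genes that do so was not counted.

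Cells that passed no gate stood outside the comparisons and held Spp1 too. Their level averaged 1779 CPM in the injured libraries, from 977 to 3048 CPM, against 805 and 541 CPM in the sham replicates. Groups of 2 libraries are too small to single out a library by its distance from the others.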

How the results depend on the processing

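Each group had 2 libraries. Leaving out a library left its group with 1, assumed to vary like the other groups. Direction held for Spp1 in macrophages/microglia under every alternative run.

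With the replicate block, the Spp1 values of 1.67 in mild (adjusted p = 0.0734) and 2.34 in moderate (adjusted p = 0.0575) no longer passed, and 283, 127, 624 and 163 genes were called in mild, moderate, severe and severe against mild. With only the 2 groups compared, Spp1 was 1.64, 2.27 and 2.76 without passing, and 0, 0, 109 and 996 genes were called. Without a margin between types, chosen after seeing the data, Spp1 was 1.56 and 2.13 in mild and moderate without passing, 100 genes were called in moderate, and border macrophages in mild turned to -0.088. By library size only, Spp1 in mild was 1.54 (adjusted p = 0.0592), and 2353 and 669 genes were called in severe and severe against mild. DESeq2 called 2349, 1498, 2409 and 1163 genes and Spp1 in severe against mild (1.196, adjusted p = 0.0190). No filter on low counts gave 2388, 1803, 2407 and 1315 genes. The cause of these changes was not tested.

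Itgav in severe turned from 0.01 to -0.000638 with DESeq2, -0.50 by library size, -0.039 with the block, -0.041 without a margin, -0.056 with 2 groups, -0.0063 with 4 markers, -0.029 without doublet removal and -0.00273 with a 20% mitochondrial limit. With at least 100 cells, 4 libraries remained, the exact test could not go below 0.125, and infiltrating macrophages differed from homeostatic microglia by 2.66 for Spp1, 2.03 for Cd44, -0.27 for Itgav and 0.63 for Itga4, with 0 calls. Itgav was -0.11 there without a margin. Neighbouring pairs were 0 by clusters, without a margin and with 100 cells. Member calls in other cell types were 14 with DESeq2 and 21 without a filter, and those of the subset difference were 2 without a filter. The no-filter fit of the subset difference had infinite median prior degrees of freedom, so no call is read from it. The share of all genes called is not set beside these counts. They therefore do not tell whether members were called more often than other genes. Unthinned shares were 88.0% for Spp1, 53.4% for Cd44, 7.02% for Itgav, 11.1% for Itga4 and 70.8% for Itgb1, which had 8.08% at 500 UMIs.

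Leaving out 1 library at a time, Spp1 in macrophages/microglia ranged from 1.51 to 1.90 in mild and from 2.05 to 2.53 in moderate. Genes called ranged from 0 to 2047, 0 to 1452, 176 to 1828 and, severe against mild, 32 to 1066. Cd44 in mild ranged from -0.72 to 1.00. Itga4 ranged from -1.42 to 0.42, -0.97 to 0.86 and -0.90 to 0.93 in the 3 groups. Itgav ranged from -0.40 to 0.10 in moderate and -0.47 to 0.40 in severe, and Itgb1 from -0.35 to 0.29 and -0.54 to 0.048. Itgb1 against other gated cells ranged from -0.67 to -0.37 and between subsets from -0.16 to -0.064. The member calls given next have no share of all genes called beside them. They therefore do not tell whether members were called more often than other genes. Subset-difference fits without a sham or mild replicate had median prior degrees of freedom of 663 or infinite. No call is read from those fits. Member calls ranged from 4 to 19 in other cell types and from 0 to 6 for the subset difference, and neighbouring pairs from 0 to 6.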
